A study of Mus musculus with 9 samples.

Results

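The genes described here are 38 named genes of cholesterol and fatty acid synthesis, out of 55228 genes counted in HC11 cells. They were chosen by name from the known pathway, with earlier results of these data known. HC11 cells are a line of mammary epithelial cells from the mouse that differentiate toward milk production when given lactogenic hormones, and all the cells here were undifferentiated. RNA was sequenced from parental *WT* cells and from 2 lines, *KD1* and *KD2*, in which *Vangl2*, a planar cell polarity gene, had been cut with CRISPR/Cas9 and a repair template that carries stop codons, with 3 cultures of each line. All 9 cultures grew in medium with 10% fetal bovine serum, 5 µg/mL insulin and 10 ng/mL epidermal growth factor, and both edited lines grew from single colonies. The labels call both lines knockouts, whereas the paper calls them knockdown lines. By immunoblot the paper found VANGL2 protein nearly or fully absent in *KD1* and strongly reduced in *KD2*. Each edited line is 1 clone set against the parental line, so that the edit and the founding cell of a clone cannot be told apart. Nothing in the sources used here says that the 3 cultures of a line were grown or harvested apart, so that p-values measure only the spread between these cultures, which may be technical.

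Cells make cholesterol from acetyl-CoA through mevalonate, squalene and a chain of sterol intermediates, and they make fatty acids from the same acetyl-CoA through malonyl-CoA. Both routes are switched on by the sterol regulatory element binding proteins (SREBPs), which are held in the endoplasmic reticulum by INSIG proteins while sterols are plentiful, are carried to the Golgi by SCAP when sterols run low, and are cut there so that a transcription factor reaches the nucleus. SREBP-2, from *Srebf2*, mostly drives the sterol genes, and SREBP-1, from *Srebf1*, mostly drives the fatty acid genes. In the mammary gland these genes are best known for their rise at lactation, when the epithelium makes the fat of milk. Insulin and serum, both in the medium of every culture here, act on the same pathway, insulin as an inducer and serum lipoproteins as a source of cholesterol.

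Depth ran from 19231428 to 28360592 counts per culture, and a count of 3, used as the floor, was worth 0.0999 to 0.154 CPM, the count scaled by the TMM-adjusted size of its library. A gene is called changed at an adjusted p under 0.05 in the edgeR quasi-likelihood test, with the Benjamini-Hochberg adjustment taken across all 15253 genes that were tested, and strongly changed where the log2 fold change was also beyond 1 in size. Of the listed genes 37 passed the filter on low counts and were tested. *Thrsp*, a nuclear protein induced with lipogenesis, was not tested, with 1, 2 and 1 counts in *WT*, 3, 4 and 2 in *KD1* and 2, 2 and 0 in *KD2*. Libraries of *KD1* differed little from each other (chi-square per degree of freedom of 1.42 to 1.91), whereas *WT* replicate 1 differed from the other *WT* libraries by 11.9 and 14.5 and *KD2* replicate 3 from the other *KD2* libraries by 19.6 and 24.9, so that counts of changed genes are also given without these 2 libraries, a choice made after seeing the data. *Vangl2* itself had 66, 99 and 86 counts in *WT*, 75, 48 and 69 in *KD1* and 90, 118 and 90 in *KD2*. Its log2 fold change was -0.63 (SE 0.171, adjusted p = 0.0058) in *KD1* and 0.05 (SE 0.162, adjusted p = 0.81) in *KD2*, and since an inserted stop codon need not lower a transcript, these counts do not check the edit.

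All 6 epithelial markers (*Epcam*, *Cdh1*, *Krt8*, *Krt18*, *Krt5* and *Krt14*) passed the filter, and their summed level was 4818 to 5389 CPM in *WT*, 5464 to 5607 in *KD1* and 2873 to 3565 in *KD2*. Most of that sum came from *Krt5* and *Krt14*, which fell in *KD2* by 0.96 and 0.90 on the log2 scale, as did *Epcam* and *Cdh1* by 0.36 and 0.69, while *Krt8* rose by 0.76 (adjusted p = 7.4e-06) and *Krt18* stood at 0.13 (adjusted p = 0.16). Markers of fat cells, which also make lipid, summed to 0.195 to 0.615 CPM in *WT*, 2.24 to 2.94 in *KD1* and 0.148 to 0.632 in *KD2*. Only *Fabp4* of those 6 passed the filter, and it was higher in *KD1* (log2 fold change 3.76), where it made up most of the sum. *Adipoq*, *Plin1*, *Lep* and *Retn* held no more than 3 counts in any culture. *Cidec* held 5, 4 and 1 counts in *WT*, 0, 2 and 0 in *KD1* and 0, 0 and 1 in *KD2*. The 5 fibroblast markers summed to 15.4 to 20.6, 7.99 to 9.97 and 22.6 to 24.5 CPM in the same order of lines. Of these *Pdgfra* was higher (1.04) and *Col1a1* lower (-0.71) in *KD2*. In *KD1* *Col1a1* was lower (-3.62) and *Pdgfra* stood at 0.07. *Col3a1* held 0, 1 and 0 counts in *KD1*, beside 59, 80 and 59 in *WT*. In that order of lines the 5 immune markers summed to 3.08 to 5.94, 7.1 to 8.53 and 3.6 to 4.62 CPM. Most of that sum was *Cd68*, with means of 4.1, 7.56 and 4.02 CPM. *Csf1r* held 13, 6 and 7 counts in *KD1*, beside 1, 2 and 2 in *WT*. *Ptprc*, *Adgre1* and *Cd3e* held no more than 3 counts in any culture. The 4 endothelial markers summed to 2.05 to 2.49, 4.87 to 5.5 and 1.43 to 2.1 CPM. *Pecam1* among them was higher in *KD1* (1.18) and lower in *KD2* (-1.23). *Cdh5* held 22, 24 and 7 counts in *KD2*, beside 0, 0 and 1 in *WT*. The part that these cell types have in the results was not tested. In RNA from whole cultures, fewer cells of a type and less RNA per cell cannot be told apart.

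In *KD1*, 16 of the 37 genes tested were higher than in *WT* and 5 were lower. These are 43.2% and 13.5% of the genes, set against 26.9% of all genes tested that were higher and 30.0% that were lower in that comparison. The median log2 fold change of the 37 genes was 0.16, beside -0.03 over all genes tested. None was strongly changed in either direction, where 9.34% of all genes tested were strongly higher and 7.49% strongly lower (edgeR), and *Fasn*, the nearest to that line at 0.96, was past it in the fit without *WT* replicate 2, at 1.04. Without the 2 libraries that stood apart, 19 genes were higher and 11 lower, with a median of 0.12. The shares of all genes changed in that fit were not worked out, so that these counts have no background beside them. The summed level of all 38 genes was 5543 ± 361 CPM in *WT* and 7119.8 ± 28.8 CPM in *KD1* (mean ± SD, n = 3). Most of that difference lay in *Fasn* alone, with means of 1188.4 CPM in *WT* and 2309.6 CPM in *KD1*.

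In *KD2* the balance lay the other way, with 10 genes higher and 17 lower than in *WT*. These are 27.0% and 45.9% of the 37, beside 34.0% and 33.3% of all genes tested, and the median log2 fold change was -0.18, beside 0.01 over all genes tested. Strongly higher were 2 genes, *Acss2* and *Me1*, and none was strongly lower, where all genes tested gave 14.5% and 6.71%. Without the 2 libraries that stood apart, 10 genes were higher and 21 lower, with a median of -0.29, and the same number, 2, were strongly higher. For these counts too the shares of all genes changed were not worked out. Scaling to library size alone moved the median to -0.071. The summed level of the 38 genes in *KD2* was 4868 ± 82.9 CPM.

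Set against each other, *KD2* was lower than *KD1* in 19 of the 37 genes and higher in 7, or 51.4% and 18.9%, beside 33.0% and 34.8% of all genes tested. The median log2 fold change was -0.26, beside 0.02 over all genes tested. *Acss2* and *Acacb* were strongly higher in *KD2*, and *Nsdhl*, *Sc5d* and *Dhcr7* strongly lower, where 14.7% and 8.58% of all genes tested were strongly higher and lower. Without the 2 libraries that stood apart, 8 genes were higher and 22 lower, with a median of -0.34 and again no share of all genes worked out. In that fit *Acacb* was at 0.98 and *Nsdhl* at -0.95, both still changed but inside the line for a strong change, as they were without *KD2* replicate 3 alone, at 0.99 and -0.95. The comparisons against *WT* share their *WT* cultures, and the values of the 2 edited lines are therefore given side by side below.

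**Figure D1:**
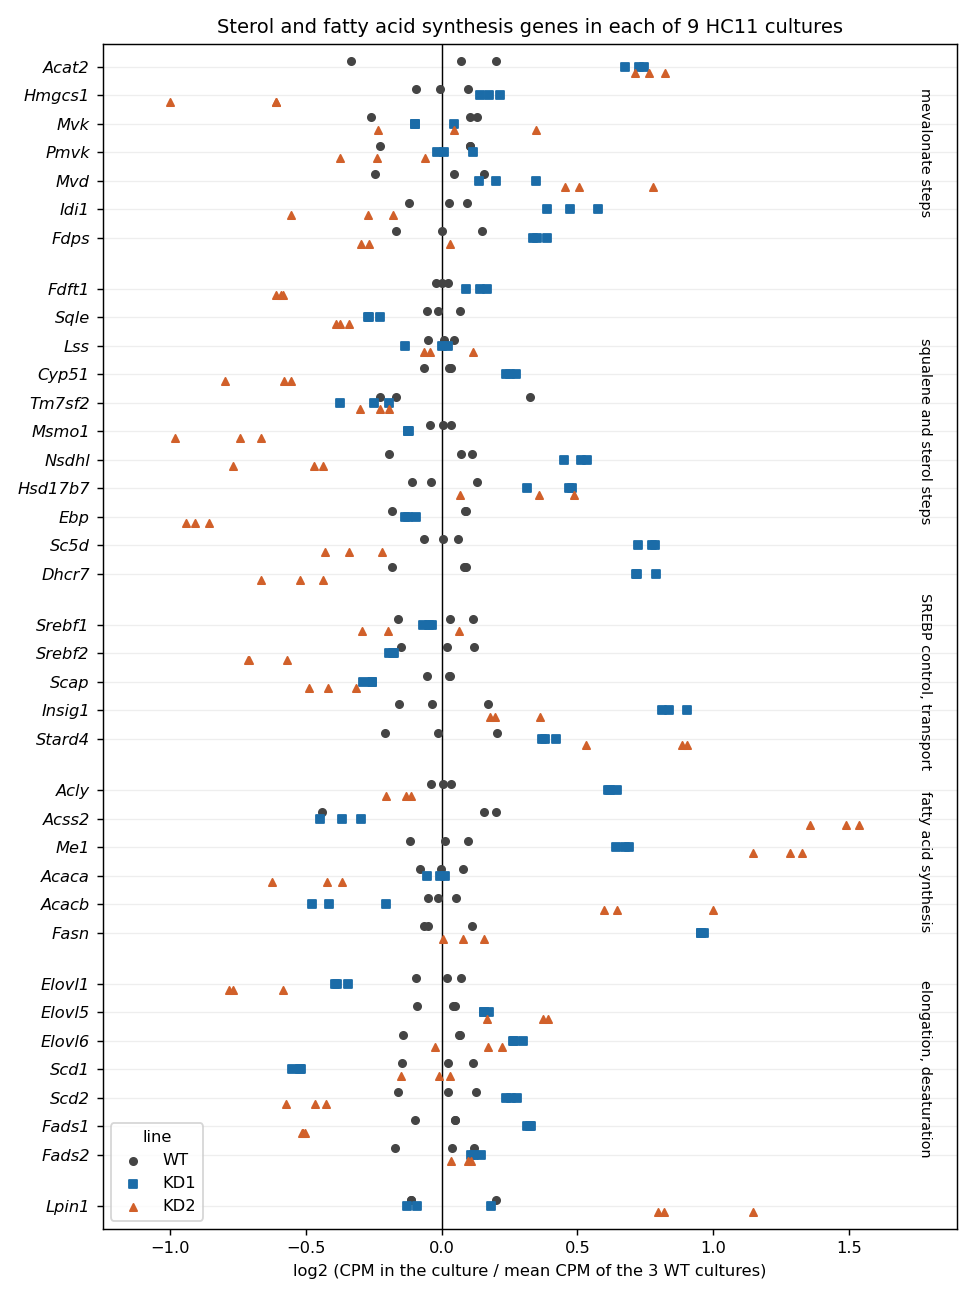
Level of the 37 tested genes in each culture, as the log2 ratio of its CPM to the mean CPM of the 3 *WT* cultures (x axis), with 1 row per gene grouped by role and 3 points per line. The *KD1* points lie close together in most rows. In *Dhcr7*, *Sc5d* and *Nsdhl* the 3 *KD1* cultures lie to the right of *WT* and the 3 *KD2* cultures to the left.

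**Figure D2:**
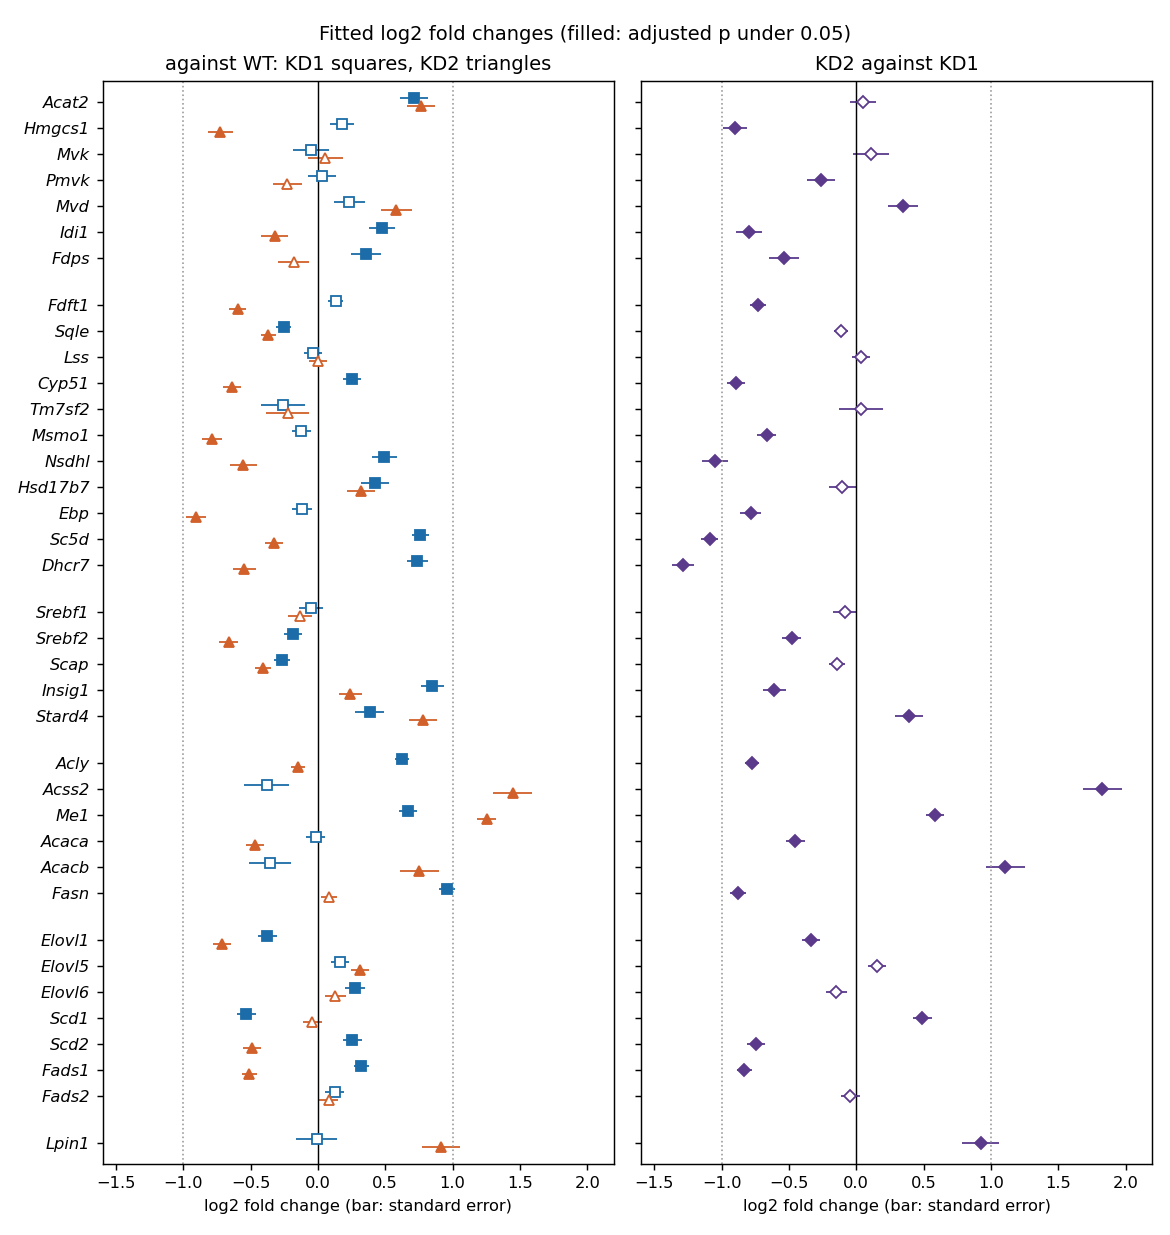
Fitted log2 fold change with its standard error for the same 37 genes, against *WT* on the left and of *KD2* against *KD1* on the right, with dotted lines at a log2 fold change of 1 in each direction. Filled symbols passed an adjusted p of 0.05. Of the 26 filled symbols on the right, 19 lie below 0.

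The promoter sequences are shown because SREBPs are known to act at a sterol regulatory element beside sites for the factors NF-Y and USF, and the genes below are those with a strong change in any comparison, printed so that these letters can be seen in place. RefSeq start windows (GRCm38.p6, 250 bases before to 50 after an annotated start) were matched by symbol for 31 of the 38 genes, in 39 windows. Searched on both strands, each motif on its own so that a base could count in more than 1, TCACNCCAC (sterol regulatory element) stood in 1 of the 39 windows (2.56%), beside 1.13% of the 13494 windows of all genes tested. CCAAT, the NF-Y box, stood in 26 (66.7%), beside 37.8%, and CACGTG, the E-box, in 7 (17.9%), beside 9.67%. In the 11 windows of the squalene and sterol genes CCAAT stood in 9 (81.8%). A match of letters is a description and does not show that a factor binds there. Only these letters were searched, so that a window without a match may still hold an element spelled otherwise.

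Each window runs 5′ to 3′ along its gene, with the matched letters in capitals. For each gene that was strongly changed in any comparison the window with the most matches is printed. This is not always the window nearest the start of the gene. *Hmgcs1* is added, chosen after its sequence was seen, because it holds the only match to TCACNCCAC. The *Dhcr7* window (chr7:143829964-143830263, strand +) lies at a start inside the gene and holds 2 CCAAT boxes, the *Sc5d* window (chr9:42264251-42264550, strand -) holds 1 CCAAT box and 1 E-box, and the *Nsdhl* window (chrX:72918271-72918570, strand +) holds 4 CCAAT boxes. The windows of *Acss2* (chr2:155517793-155518092, strand +), *Me1* (chr9:86687228-86687527, strand -) and *Acacb* (chr5:114165268-114165567, strand +) hold 1 CCAAT box each, those of *Me1* and *Acacb* again at starts inside the gene. Windows of *Dhcr7* and *Me1* nearer the annotated gene start are not printed. Those of *Dhcr7* hold no match (chr7:143822917-143823216) and 1 E-box (chr7:143823149-143823448), and that of *Me1* holds no match (chr9:86695865-86696164). The *Hmgcs1* window (chr13:119690101-119690400, strand +) holds TCACCCCAC, whose first base lies at -137 from the start site, and 4 CCAAT boxes.
Dhcr7: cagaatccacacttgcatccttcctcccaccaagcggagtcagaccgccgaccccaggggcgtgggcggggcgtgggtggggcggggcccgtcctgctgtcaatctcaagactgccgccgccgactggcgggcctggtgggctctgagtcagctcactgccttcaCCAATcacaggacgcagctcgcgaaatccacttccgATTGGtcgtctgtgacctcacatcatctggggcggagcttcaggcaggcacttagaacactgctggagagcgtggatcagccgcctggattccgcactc
Sc5d: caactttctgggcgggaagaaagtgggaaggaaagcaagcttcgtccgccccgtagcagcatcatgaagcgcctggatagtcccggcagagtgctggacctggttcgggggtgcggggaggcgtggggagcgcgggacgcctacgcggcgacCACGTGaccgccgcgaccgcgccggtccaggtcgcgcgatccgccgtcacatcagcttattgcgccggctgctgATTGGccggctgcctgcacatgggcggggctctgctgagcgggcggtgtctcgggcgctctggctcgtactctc
Nsdhl: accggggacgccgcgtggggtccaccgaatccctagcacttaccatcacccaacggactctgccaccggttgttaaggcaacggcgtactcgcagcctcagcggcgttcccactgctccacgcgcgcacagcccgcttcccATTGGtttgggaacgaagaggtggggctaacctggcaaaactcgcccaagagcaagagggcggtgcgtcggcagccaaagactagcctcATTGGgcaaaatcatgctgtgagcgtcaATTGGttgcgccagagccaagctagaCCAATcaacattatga
Acss2: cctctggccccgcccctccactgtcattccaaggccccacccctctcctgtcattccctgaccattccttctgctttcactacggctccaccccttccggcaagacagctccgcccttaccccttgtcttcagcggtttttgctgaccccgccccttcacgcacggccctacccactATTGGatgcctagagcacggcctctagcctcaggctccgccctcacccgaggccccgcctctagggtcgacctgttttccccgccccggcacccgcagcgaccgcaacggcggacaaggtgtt
Me1: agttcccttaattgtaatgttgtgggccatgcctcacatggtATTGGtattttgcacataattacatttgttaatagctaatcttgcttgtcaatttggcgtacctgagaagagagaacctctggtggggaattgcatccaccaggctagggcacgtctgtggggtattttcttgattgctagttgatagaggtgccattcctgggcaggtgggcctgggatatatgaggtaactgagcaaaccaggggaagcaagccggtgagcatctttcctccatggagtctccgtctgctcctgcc
Acacb: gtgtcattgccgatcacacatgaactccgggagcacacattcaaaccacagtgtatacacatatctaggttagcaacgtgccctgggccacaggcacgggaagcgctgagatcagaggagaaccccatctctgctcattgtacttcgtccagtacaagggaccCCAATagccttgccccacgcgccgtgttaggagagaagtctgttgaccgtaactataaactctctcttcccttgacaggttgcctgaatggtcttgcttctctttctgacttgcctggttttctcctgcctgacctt
Hmgcs1: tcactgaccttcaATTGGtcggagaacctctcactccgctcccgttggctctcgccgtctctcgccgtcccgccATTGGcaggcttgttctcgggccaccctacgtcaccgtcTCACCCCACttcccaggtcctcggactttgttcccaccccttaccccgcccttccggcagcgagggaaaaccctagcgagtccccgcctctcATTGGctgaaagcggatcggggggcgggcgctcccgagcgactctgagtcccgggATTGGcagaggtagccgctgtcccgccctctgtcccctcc

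The 7 genes on the way from acetyl-CoA to farnesyl diphosphate, the branch point of sterols and other isoprenoids are described first. In *KD1* 3 of them were higher than in *WT* and none lower (42.9% and 0%, beside 26.9% and 30.0% of all genes tested). In *KD2* 2 were higher and 2 lower, 28.6% each, near the 34.0% and 33.3% of all genes tested. *Acat2*, the cytosolic thiolase that joins acetyl-CoA units, moved furthest from *WT* in these steps. *Acat2* stood at 14.5, 21.0 and 19.2 CPM in the *WT* cultures (18.3 ± 3.35, mean ± SD), at 29.2, 30.7 and 30.3 CPM in *KD1* (30.1 ± 0.821) and at 30.0, 31.1 and 32.4 CPM in *KD2* (31.2 ± 1.2), and these values rested on 284, 526 and 394 counts in *WT*, 790, 782 and 752 in *KD1* and 743, 933 and 659 in *KD2*. Both edited lines lay above every *WT* culture, with log2 fold changes of 0.71 (SE 0.104, adjusted p = 4.6e-05) in *KD1* and 0.76 (SE 0.104, adjusted p = 1.8e-05) in *KD2*, and they did not differ detectably from each other (0.05, SE 0.0988, adjusted p = 0.67). Of the 50-base windows of *Acat2* exons, 39.1% also occur in *Acat3* or *Tcp1*, so that its counts are uncertain, and chromosome 17, where it lies, had a median of 0.28 in *KD2*.

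*Hmgcs1*, the synthase of the HMG-CoA from which mevalonate is made, stood at 75.2, 86.0 and 80.0 CPM in *WT*, 90.6, 88.6 and 93.3 in *KD1* and 52.6, 52.7 and 40.2 in *KD2*. All 3 *KD2* cultures were below all others, and the log2 fold change was -0.72 (SE 0.0917, adjusted p = 9.1e-06) in *KD2* and 0.18 (SE 0.0896, adjusted p = 0.11) in *KD1*. *Idi1*, the isomerase of isopentenyl diphosphate, was changed in both lines, at 0.47 in *KD1* and -0.32 in *KD2*. Both genes lie on chromosome 13, whose genes had a median log2 fold change of -0.66 in *KD2*. The *Idi1* call in *KD2* was lost without *WT* replicate 2 or *WT* replicate 3 (adjusted p = 0.0826 and 0.0553), and with the chromosome median taken off its value became 0.34.

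The remaining genes of the mevalonate steps are 2 kinases, a decarboxylase and a synthase. *Fdps*, the farnesyl diphosphate synthase, rose in *KD1* (log2 fold change 0.36, SE 0.11, adjusted p = 0.013) and stood at -0.18 (SE 0.114, adjusted p = 0.18) in *KD2*. *Mvd*, the decarboxylase that makes isopentenyl diphosphate, rose in *KD2* (0.58, SE 0.114, adjusted p = 0.00045) and stood at 0.23 (SE 0.115, adjusted p = 0.1) in *KD1*. The kinases *Mvk* and *Pmvk* lay between -0.23 and 0.06 in both comparisons against *WT* and passed the test in neither. Between the edited lines *Pmvk* was lower in *KD2* (-0.26, SE 0.103, adjusted p = 0.039), a call lost without any 1 of 6 libraries (adjusted p of 0.0505 to 0.166), and *Mvd* was higher (0.35, SE 0.11, adjusted p = 0.012), a call lost without *KD1* replicate 3 (adjusted p = 0.062). *Fdps* shares 26.2% and *Idi1* 25.3% of their exon windows with other annotated genes, so that these counts are uncertain.

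The 11 genes from squalene to cholesterol were mostly lower in *KD2*. In *KD1* 5 were higher than in *WT* and 1 lower (45.5% and 9.09%, beside 26.9% and 30.0% of all genes tested), whereas in *KD2* 1 was higher and 8 were lower (9.09% and 72.7%, beside 34.0% and 33.3%), and the medians were 0.13 and -0.55. Between *KD2* and *KD1* 7 of the 11 were lower in *KD2* and none higher, with a median of -0.73. These are 63.6% and 0%, beside 33.0% of all genes tested that were lower and 34.8% that were higher. Summed, they stood at 769.7 ± 32.7 CPM in *WT*, 851 ± 7.48 in *KD1* and 543 ± 24.5 in *KD2*, and the cultures of the 3 lines did not overlap.

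*Dhcr7*, the reductase that makes cholesterol from 7-dehydrocholesterol as the last step of 1 branch of the pathway, differed most between *KD2* and *KD1* among these genes. *Dhcr7* stood at 38.3, 46.3 and 46.0 CPM in the *WT* cultures (43.5 ± 4.53), at 71.6, 75.2 and 71.4 CPM in *KD1* (72.7 ± 2.11) and at 30.3, 27.4 and 32.1 CPM in *KD2* (29.9 ± 2.34), and these values rested on 748, 1157 and 943 counts in *WT*, 1940, 1912 and 1771 in *KD1* and 749, 824 and 652 in *KD2*. The 3 lines did not overlap, with *KD1* above and *KD2* below *WT*. Its log2 fold change was 0.74 (SE 0.0793, adjusted p = 2.4e-06) in *KD1*, -0.55 (SE 0.0825, adjusted p = 4.8e-05) in *KD2* and -1.28 (SE 0.0809, adjusted p = 5.9e-09) between *KD2* and *KD1*. Chromosome 7, where it lies, had medians of 0.00 and 0.03 in the 2 comparisons against *WT*.

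*Sc5d*, the desaturase that acts just before *Dhcr7*, showed the same order. *Sc5d* stood at 54.8, 57.5 and 59.7 CPM in the *WT* cultures (57.3 ± 2.46), at 94.6, 98.8 and 97.9 CPM in *KD1* (97.1 ± 2.25) and at 49.2, 45.2 and 42.5 CPM in *KD2* (45.6 ± 3.41), and these values rested on 1070, 1438 and 1223 counts in *WT*, 2562, 2514 and 2428 in *KD1* and 1218, 1359 and 863 in *KD2*. Every *KD1* culture was above and every *KD2* culture below the *WT* cultures. The log2 fold change was 0.76 (SE 0.0647, adjusted p = 2.2e-07) in *KD1*, -0.33 (SE 0.0662, adjusted p = 0.00057) in *KD2* and -1.09 (SE 0.0652, adjusted p = 3.6e-09) between them, and with library size alone as the scale the last value was -0.96.

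*Nsdhl*, a dehydrogenase that helps remove the methyl groups of lanosterol, was ordered likewise. *Nsdhl* stood at 20.7, 25.6 and 24.9 CPM in the *WT* cultures (23.7 ± 2.66), at 34.3, 33.8 and 32.4 CPM in *KD1* (33.5 ± 0.981) and at 17.1, 17.5 and 13.9 CPM in *KD2* (16.1 ± 1.97), and these values rested on 404, 640 and 511 counts in *WT*, 930, 859 and 804 in *KD1* and 422, 525 and 282 in *KD2*. The lines did not overlap. In the fit its log2 fold change was 0.49 (SE 0.0944, adjusted p = 0.00049) in *KD1*, -0.55 (SE 0.0993, adjusted p = 0.00022) in *KD2* and -1.05 (SE 0.0965, adjusted p = 3.2e-07) between them, and with library size alone as the scale the last value was -0.92. The gene is on chromosome X, whose genes had a median of -0.63 in *KD2*, and with that median taken off its *KD2* value was 0.076.

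*Ebp*, the sterol isomerase, is on the same chromosome and fell furthest of the 37 genes in *KD2*, by the fitted log2 fold change of -0.91 (SE 0.0777, adjusted p = 2e-07), with 35.2, 42.4 and 42.5 CPM in *WT*, 36.7, 36.4 and 37.5 in *KD1* and 20.8, 22.1 and 21.3 in *KD2*. *Msmo1*, the sterol methyl oxidase, fell in *KD2* by 0.79 on the log2 scale, *Cyp51*, the lanosterol demethylase, by 0.64, and *Fdft1*, the squalene synthase, by 0.60. *Fdft1* lies on chromosome 14, whose median was -0.47 in *KD2*, and overlaps *Ctsb* on the other strand over 18.3% of its exon bases, and whether strand was used in counting is not given in the sources used here. In *KD1* those 3 genes stood at -0.12, 0.25 and 0.13, and of them *Cyp51* alone passed the test.

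*Sqle*, the squalene epoxidase and a known rate-limiting step, was lower than in *WT* in both lines, at -0.26 (SE 0.0542, adjusted p = 0.0011) in *KD1* and -0.37 (SE 0.0543, adjusted p = 3.8e-05) in *KD2*. *Hsd17b7*, which reduces sterol ketones, was higher in both, at 0.42 and 0.32, and its *KD2* call was lost without *WT* replicate 1 (adjusted p = 0.0689) or *KD2* replicate 1 (adjusted p = 0.0912). *Lss*, the lanosterol synthase, lay at -0.04 (SE 0.0685) and 0.00 (SE 0.0688). *Tm7sf2*, a sterol reductase at 2.71 to 4.4 CPM, lay at -0.26 and -0.23, and neither gene passed the test against *WT*.

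Among the genes that control the pathway, the 2 SREBP genes are taken first. *Srebf2* stood at 235, 283 and 264 CPM in *WT*, 230.1, 228 and 231 in *KD1* and 159.5, 159 and 176 in *KD2*. It fell in *KD2* (-0.66, SE 0.0698, adjusted p = 1.5e-06), where it lay below every culture of the other lines. In *KD1* it was at -0.18 (SE 0.0693, adjusted p = 0.035), a call lost without any 1 of 5 libraries (adjusted p of 0.0937 to 0.273). *Srebf1* did not pass the test in any comparison, with log2 fold changes of -0.05 (SE 0.0883) in *KD1* and -0.14 (SE 0.0884) in *KD2*, and without *KD2* replicate 3 the *KD2* value was -0.22 (adjusted p = 0.00521), and without *WT* replicate 1 as well -0.33 (adjusted p = 1.29e-09). *Scap*, the escort of SREBPs, fell in both lines, by 0.27 in *KD1* and by 0.41 in *KD2*. These counts are of RNA and do not show how much SREBP was cut and active.

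*Insig1*, which retains SREBPs and is itself a known SREBP target, moved furthest of the control genes. *Insig1* stood at 20.8, 24.0 and 19.1 CPM in the *WT* cultures (21.3 ± 2.49), at 39.8, 37.4 and 38.1 CPM in *KD1* (38.4 ± 1.25) and at 24.4, 24.1 and 27.4 CPM in *KD2* (25.3 ± 1.83), and these values rested on 406, 600 and 391 counts in *WT*, 1079, 951 and 945 in *KD1* and 603, 724 and 557 in *KD2*. All *KD1* cultures were above all *KD2* cultures, which were above all *WT* cultures. The log2 fold change was 0.85 (SE 0.0855, adjusted p = 1.3e-06) in *KD1*, 0.24 (SE 0.0876, adjusted p = 0.026) in *KD2* and -0.61 (SE 0.0836, adjusted p = 1.8e-05) between them, and the *KD2* call was lost without *WT* replicate 1 or *WT* replicate 3 (adjusted p = 0.0764 and 0.089) and without the 2 libraries that stood apart (adjusted p = 0.0579). *Stard4*, a carrier of cholesterol between membranes, was higher in both lines, at 0.38 (SE 0.107, adjusted p = 0.0072) in *KD1* and 0.78 (SE 0.107, adjusted p = 1.9e-05) in *KD2*.

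In fatty acid synthesis *Fasn* and *Acly* rose in *KD1* alone, *Acss2* and *Acacb* in *KD2* alone, and *Me1* in both. Of the 6 genes tested, 3 were higher in *KD1* and none lower (50% and 0%, beside 26.9% and 30.0% of all genes tested), and 3 were higher and 2 lower in *KD2* (50% and 33.3%, beside 34.0% and 33.3%). *Fasn*, the synthase that builds palmitate, was at 1135, 1284 and 1147 CPM in *WT*, 2319.8, 2304 and 2305 in *KD1* and 1255, 1193 and 1323 in *KD2*. The *KD1* cultures lay together at 1.94 times the *WT* level, with a log2 fold change of 0.96 (SE 0.0586, adjusted p = 6.4e-09), and the *KD2* cultures overlapped *WT* (0.08, SE 0.0582, adjusted p = 0.24). *Acly*, which makes cytosolic acetyl-CoA from citrate, followed, at 343, 336 and 326 CPM in *WT*, 512, 524 and 516 in *KD1* and 306, 290.5 and 310.0 in *KD2*. Its log2 fold change was 0.63 (SE 0.0515, adjusted p = 1.5e-07) in *KD1*, and the small value in *KD2* (-0.15, SE 0.0515, adjusted p = 0.019) lost its call without any 1 of 4 libraries (adjusted p of 0.0507 to 0.0867).

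*Acss2*, which makes acetyl-CoA from acetate, rose most of the 37 genes, in *KD2*. *Acss2* stood at 2.56, 3.88 and 4.0 CPM in the *WT* cultures (3.48 ± 0.8), at 2.55, 2.83 and 2.7 CPM in *KD1* (2.69 ± 0.142) and at 9.78, 8.92 and 10.1 CPM in *KD2* (9.6 ± 0.603), and these values rested on 50, 97 and 82 counts in *WT*, 69, 72 and 67 in *KD1* and 242, 268 and 205 in *KD2*. Every *KD2* culture was above every other culture, and the fit put *KD2* at 2.73 times the *WT* level. The log2 fold change was 1.45 (SE 0.145, adjusted p = 9.4e-07) in *KD2*, -0.38 (SE 0.166, adjusted p = 0.065) in *KD1* and 1.83 (SE 0.147, adjusted p = 8e-08) between them, and without *WT* replicate 1 the *KD1* value was -0.55 (adjusted p = 0.00453). Its exons overlap *Gss*, *Acss2os* and *Ggt7* on the other strand over 9.12% of their bases.

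*Me1*, the cytosolic malic enzyme that supplies NADPH, was higher in both lines. *Me1* stood at 47.9, 55.5 and 52.3 CPM in the *WT* cultures (51.9 ± 3.81), at 83.7, 82.8 and 81.0 CPM in *KD1* (82.5 ± 1.39) and at 130.1, 126 and 115 CPM in *KD2* (124 ± 7.93), and these values rested on 935, 1387 and 1071 counts in *WT*, 2268, 2105 and 2008 in *KD1* and 3220, 3790 and 2335 in *KD2*. The 3 lines did not overlap, and *KD2* was highest. In the fit its log2 fold change was 0.67 (SE 0.069, adjusted p = 1.6e-06) in *KD1*, 1.25 (SE 0.069, adjusted p = 2.5e-09) in *KD2* and 0.59 (SE 0.0671, adjusted p = 3e-06) between them. Of its exon windows 28.3% also occur in other annotated genes, so that its counts are uncertain.

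The acetyl-CoA carboxylases, which make malonyl-CoA, moved in opposite directions in *KD2*. *Acacb*, whose product sits at mitochondria and is known for limiting fatty acid oxidation, was low throughout. *Acacb* stood at 3.12, 3.04 and 3.27 CPM in the *WT* cultures (3.15 ± 0.117), at 2.73, 2.36 and 2.26 CPM in *KD1* (2.45 ± 0.249) and at 4.77, 4.93 and 6.3 CPM in *KD2* (5.33 ± 0.84), and these values rested on 61, 76 and 67 counts in *WT*, 74, 60 and 56 in *KD1* and 118, 148 and 128 in *KD2*. The *KD2* cultures were above all others. The log2 fold change was 0.75 (SE 0.146, adjusted p = 0.00042) in *KD2*, -0.36 (SE 0.159, adjusted p = 0.071) in *KD1* and 1.11 (SE 0.147, adjusted p = 1.3e-05) between them. *Acaca*, the cytosolic enzyme of synthesis, stood at 281, 296 and 266 CPM in *WT*, 270.3, 279 and 283 in *KD1* and 218, 209 and 182 in *KD2*, with log2 fold changes of -0.47 (SE 0.0697, adjusted p = 4.3e-05) in *KD2* and -0.02 (SE 0.0694, adjusted p = 0.86) in *KD1*. It shares 30.4% of its exon windows with other annotated genes.

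**Figure D3:**
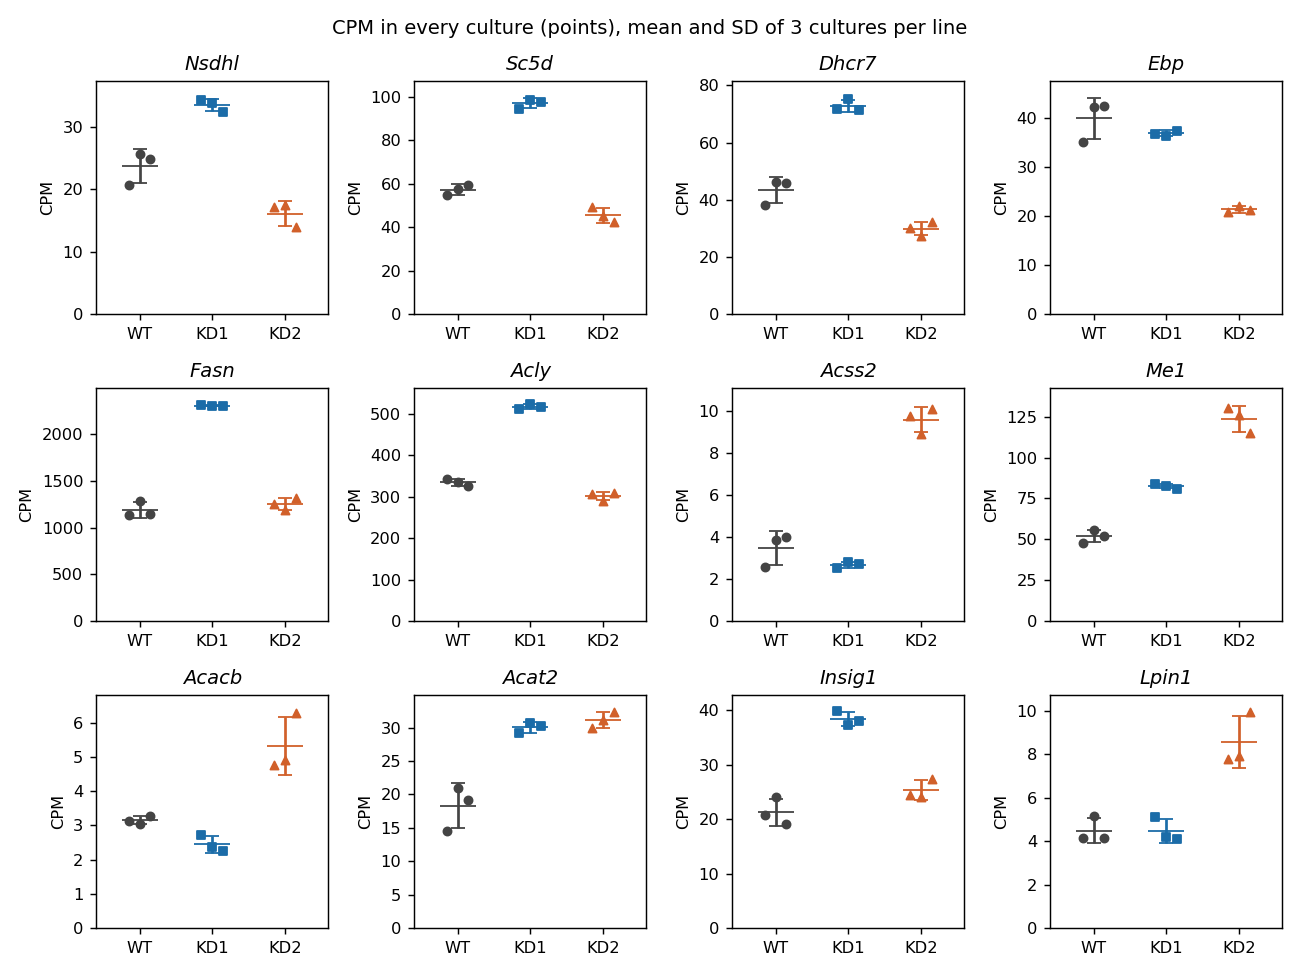
CPM of 12 of the genes in every culture, each panel starting at 0, with the mean and SD of 3 cultures per line. *Dhcr7*, *Sc5d* and *Nsdhl* are highest in *KD1* and lowest in *KD2*, *Fasn* and *Acly* are high in *KD1* alone, *Acss2*, *Acacb* and *Lpin1* are high in *KD2* alone, and *Me1* rises from *WT* through *KD1* to *KD2*.

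Elongation and desaturation of fatty acids changed gene by gene. In *KD1* 3 of the 7 genes were higher and 2 lower (42.9% and 28.6%, beside 26.9% and 30.0% of all genes tested), and in *KD2* 1 was higher and 3 were lower (14.3% and 42.9%, beside 34.0% and 33.3%). *Elovl1*, the elongase of very long saturated chains, moved furthest and was lower in both lines. *Elovl1* stood at 78.8, 85.4 and 88.5 CPM in the *WT* cultures (84.2 ± 4.97), at 64.5, 66.3 and 64.1 CPM in *KD1* (65.0 ± 1.21) and at 49.4, 48.9 and 56.2 CPM in *KD2* (51.5 ± 4.11), and these values rested on 1538, 2134 and 1813 counts in *WT*, 1746, 1687 and 1589 in *KD1* and 1222, 1468 and 1143 in *KD2*. The lines did not overlap. In the fit its log2 fold change was -0.37 (SE 0.0679, adjusted p = 0.00031) in *KD1*, -0.71 (SE 0.0688, adjusted p = 6.5e-07) in *KD2* and -0.34 (SE 0.0688, adjusted p = 0.0006) between them. *Elovl5*, an elongase of polyunsaturated chains, was higher in *KD2* (0.31, SE 0.0682, adjusted p = 0.001), and *Elovl6*, an elongase of palmitate, was higher in *KD1* (0.28, SE 0.0758, adjusted p = 0.0065).

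The stearoyl-CoA desaturases, which place the double bond of oleate, went opposite ways in *KD1*. *Scd1* was at 342, 410.3 and 385 CPM in *WT*, 259, 265 and 264 in *KD1* and 387, 377 and 342 in *KD2*. *Scd1* fell in *KD1* (-0.53, SE 0.0703, adjusted p = 1.9e-05) and stood at -0.04 (SE 0.07, adjusted p = 0.62) in *KD2*. *Scd2*, its neighbour on chromosome 19, was at 960.5, 1172 and 1090.4 CPM in *WT*, 1282, 1301 and 1266 in *KD1* and 799, 776 and 721 in *KD2*. *Scd2* rose in *KD1* (0.26, SE 0.0682, adjusted p = 0.0055) and fell in *KD2* (-0.49, SE 0.0684, adjusted p = 2.3e-05). *Fads1*, the delta-5 desaturase, was likewise higher in *KD1* (0.32, SE 0.0554, adjusted p = 0.00021) and lower in *KD2* (-0.51, SE 0.0559, adjusted p = 2.3e-06), while *Fads2*, the delta-6 desaturase beside it, lay at 0.12 (SE 0.0689) and 0.08 (SE 0.0689) and passed the test in neither.

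Ratios of related genes within a culture, as counts per base of exon, do not depend on the scaling of a library. *Scd2* to *Scd1* was 2.51, 2.56 and 2.54 in *WT*, 4.43, 4.4 and 4.29 in *KD1* and 1.85, 1.85 and 1.89 in *KD2*. The 3 lines were far apart beside the spread of their cultures. *Fads2* to *Fads1* was 1.72 ± 0.0885 in *WT*, 1.51 ± 0.0138 in *KD1* and 2.6 ± 0.0688 in *KD2*, *Acaca* to *Acacb* was 50.5 ± 4.59, 64.5 ± 7.74 and 22 ± 5.02, and *Srebf2* to *Srebf1* was 1.0 ± 0.00876, 0.914 ± 0.0145 and 0.699 ± 0.0512 (mean ± SD, n = 3). Each of these ratios separated all 3 *KD2* cultures from the other 6. They were chosen with the values of these genes in view and were given no test.

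**Figure D4:**
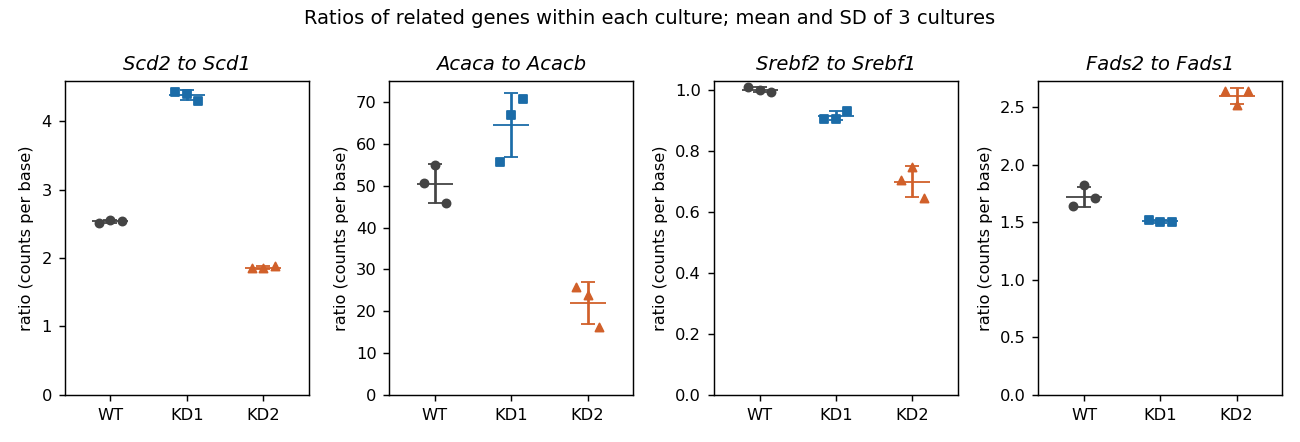
Ratio of 2 related genes in each culture, in counts per base of exon, with the mean and SD of 3 cultures per line and axes from 0. *Scd2* to *Scd1* is highest in *KD1* (4.38 on average) and lowest in *KD2* (1.86), and *Fads2* to *Fads1* is highest in *KD2* (2.6).

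*Lpin1*, a phosphatidate phosphatase on the way to triglycerides that is also a known SREBP target, was high in *KD2* alone. *Lpin1* stood at 4.15, 5.16 and 4.15 CPM in the *WT* cultures (4.49 ± 0.583), at 5.09, 4.21 and 4.11 CPM in *KD1* (4.47 ± 0.541) and at 7.8, 7.92 and 9.94 CPM in *KD2* (8.55 ± 1.2), and these values rested on 81, 129 and 85 counts in *WT*, 138, 107 and 102 in *KD1* and 193, 238 and 202 in *KD2*. All *KD2* cultures were above all others. In the fit its log2 fold change was 0.91 (SE 0.141, adjusted p = 6e-05) in *KD2*, -0.01 (SE 0.15, adjusted p = 0.96) in *KD1* and 0.92 (SE 0.138, adjusted p = 4e-05) between them, and without *WT* replicate 2 the *KD2* value was 1.06, and without *KD1* replicate 1 the value between the edited lines was 1.02.

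The genes of some chromosomes had a lowered median in *KD2*, and where along a chromosome they lay was not looked at. Genes of chromosomes 13, 14 and X had median log2 fold changes of -0.66, -0.47 and -0.63 in *KD2*, while no chromosome median in *KD1* was lower than -0.27 (chromosome 8). The 5 listed genes on those 3 chromosomes, *Hmgcs1*, *Idi1*, *Fdft1*, *Nsdhl* and *Ebp*, were all lower in *KD2* than in *WT*. Without them, 10 of 32 genes were higher and 12 lower in *KD2*, with a median of -0.09. Those shares, 31.2% and 37.5%, stand beside 34.0% and 33.3% of all genes tested. The shares of all genes still include those 3 chromosomes, and shares without them were not worked out, so that the sets are unlike. Still without the 5 genes, *KD2* against *KD1* gave 7 higher and 14 lower (21.9% and 43.8%, beside 34.8% and 33.0%), with a median of -0.13. In *KD1* the 32 gave 14 higher and 5 lower (43.8% and 15.6%, beside 26.9% and 30.0%), with a median of 0.14. *Dhcr7*, *Sc5d*, *Cyp51*, *Msmo1*, *Srebf2*, *Scd2* and *Fads1* fell in *KD2* on chromosomes whose medians lay between -0.20 and 0.15. Whether copy number differed between the lines was not tested.

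**Figure D5:**
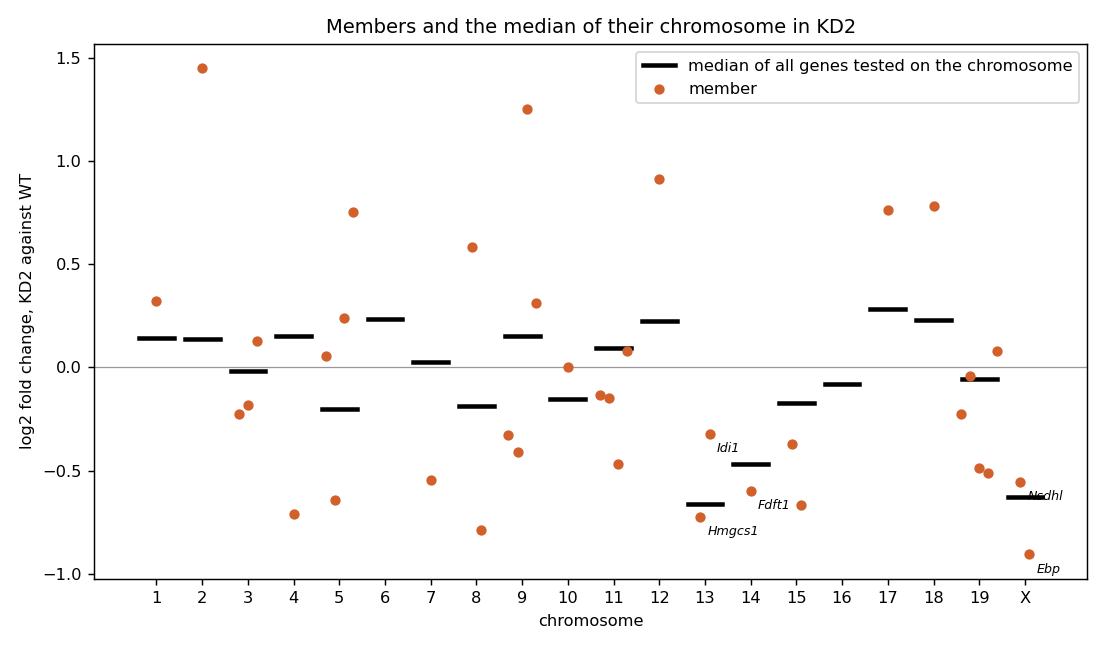
Log2 fold change of each listed gene in *KD2* against *WT* (points) by chromosome, with a bar at the median of all genes tested on that chromosome. The bars of chromosomes 13, 14 and X lie lowest, and the 5 named points lie near them or below, except *Idi1*, which lies above its bar.

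By length, the genes spanned a wide range of levels. In *WT*, *Scd2* was highest at 197 ± 19.6 CPM per kb of exon, followed by *Fasn* at 109 ± 7.55, *Scd1* at 77.5 ± 7.04, *Fads2* at 64.8 ± 6.66 and *Acly* at 63.5 ± 1.6, of which the last 2 did not differ beyond their spread. *Cyp51* was highest of the sterol genes at 45.4 ± 1.71. At the low end were *Tm7sf2* at 0.797 ± 0.177, *Lpin1* at 0.464 ± 0.0604, *Acss2* at 0.343 ± 0.0787 and *Acacb* at 0.327 ± 0.0122, so that the genes most raised in *KD2* included some of the lowest of the list. *Fasn* reached 211 CPM per kb in *KD1*, beside 235 for *Scd2*.

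Other genes of the same pathways, 82 in 7 lists, of which 70 were tested, are given as counts. In *KD1* 31 rose and 18 fell, or 44.3% and 25.7%, beside 26.9% and 30.0% of all genes tested. In *KD2* 24 rose and 27 fell, and these 34.3% and 38.6% lie near the 34.0% and 33.3% of all genes tested. *KD2* set against *KD1* gave 18 that were higher and 34 that were lower (25.7% and 48.6%, beside 34.8% and 33.0%). The lists by themselves are small and are read against the same shares. The 7 further genes tested that act in sterol synthesis gave 6 that rose and 1 that fell in *KD1*, 2 that rose and 5 that fell in *KD2*, and 7 of 7 that lay lower in *KD2* against *KD1*. Other genes of SREBP control, 7 in number, split into 3 that rose and 3 that fell in *KD1*, and into 2 and 5 in *KD2*. Further fatty acid genes, 14 tested of 19, split into 6 and 3 in *KD1*, and into 2 and 8 in *KD2*. Triglyceride and lipid droplet genes, 13 tested of 15, split into 5 and 5, then 5 and 2, and genes of fatty acid uptake and oxidation, 13 tested of 17, into 4 and 3, then 5 and 3, in the same order of direction and line.

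Among 9 genes for the uptake and traffic of sterols, 6 rose in *KD1*, 4 of them strongly, and 1 fell (66.7% and 11.1%, beside 26.9% and 30.0% of all genes tested, of which 9.34% rose strongly). In *KD2* 6 rose and 2 fell (66.7% and 22.2%, beside 34.0% and 33.3%). *Lipa*, the lysosomal lipase that frees cholesterol from lipoproteins, was at 10.4, 13.4 and 13.2 CPM in *WT*, 39.3, 43.6 and 40.2 in *KD1* and 35.3, 37.3 and 34.1 in *KD2*. Both edited lines were above every *WT* culture, at log2 fold changes of 1.73 (SE 0.0904, adjusted p = 1.2e-09) and 1.52 (SE 0.091, adjusted p = 5.5e-09). *Soat1*, which esterifies cholesterol for storage, was at 22.6, 29.6 and 24.6 CPM in *WT* and 67.8, 71.8 and 61.6 in *KD1*, with a log2 fold change of 1.38 (SE 0.0916, adjusted p = 1.5e-08), and of 0.36 (SE 0.0939, adjusted p = 0.0039) in *KD2*. *Mbtps2*, the protease that makes the last cut in SREBPs, fell in *KD2* (-1.12, SE 0.0962, adjusted p = 1.9e-07) on chromosome X and stood at -0.08 (SE 0.0936, adjusted p = 0.5) in *KD1*.

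Genes of the liver X receptor and of sterol efflux, 7 in all, held 1 that rose and 2 that fell in *KD1*, and 2 of each in *KD2*. The *KD1* shares were 14.3% and 28.6%, beside 26.9% and 30.0% of all genes tested. In *KD2* they were 28.6% each, beside 34.0% and 33.3%, so that all lay near those of all genes or below. *Abcg1*, a sterol exporter, held 10, 15 and 20 counts in *WT*, 1, 1 and 1 in *KD1* and 1, 0 and 0 in *KD2*. Every culture of the edited lines was below every *WT* culture, and the gene was lower by the test in *KD1* (adjusted p = 2.8e-05) and in *KD2* (adjusted p = 9.3e-06), with no fold given at so few counts. *Mgll*, which splits monoacylglycerol, held 9, 13 and 10 counts in *WT*, 0, 1 and 2 in *KD1* and 38, 37 and 21 in *KD2*, so that it was lower by the test in *KD1* (adjusted p = 0.00013) and rose in *KD2* (1.36, SE 0.287, adjusted p = 0.0008). *Ppargc1a*, a coactivator of mitochondrial genes, was at 49.0, 55.2 and 49.9 CPM in *WT* and 10.2, 10.6 and 10.0 in *KD1*, a log2 fold change of -2.33 (SE 0.104, adjusted p = 2.1e-10). In *KD2* it stood at 35.6, 36.8 and 27.6 CPM and was also lower (-0.62, SE 0.0935, adjusted p = 4.7e-05). *Scd4*, a further stearoyl-CoA desaturase, rose in *KD2* from 0.876 ± 0.0542 to 2.32 ± 0.442 CPM (1.41, SE 0.207, adjusted p = 3.6e-05) and stood at -0.30 (SE 0.249, adjusted p = 0.35) in *KD1*.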

How the data were processed

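The authors deposited raw counts, whole numbers of reads for each gene without normalization. Before that, poly-A RNA libraries (NEBNext Ultra) were sequenced as paired ends, trimmed with fastp, mapped to GRCm38 with HISAT2 and counted over GENCODE exons with featureCounts, and the authors tested the counts with DESeq2. Neither the strand setting nor the treatment of reads that map to several places is given in the sources used here, so that overlapping and duplicated genes can gain or lose reads.

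Lines and replicate numbers came from the labels, and 0 columns were left without a culture. Counts were tested here with edgeR 4.0.16 (R 4.3.3): TMM scaling, its expression filter, 1 quasi-likelihood fit of all 9 cultures without a block, and Benjamini-Hochberg adjustment over 15253 genes, 3 cultures per line. A change needed an adjusted p under 0.05 and a strong change also a log2 fold change beyond 1 in size. Standard errors were worked out from each fold change and its F statistic. The script was tested on simulated data. Alternatives were DESeq2 1.42.0, other scalings and filters, the replicate number as a block, the compared lines only, and each replicate left out. Depth was 19231428 to 28360592 counts. Positions, exon lengths and the 50-base windows that genes share came from GENCODE for GRCm38, whose release was not that of the authors, and promoters from RefSeq (GRCm38.p6).

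Given in full are the listed genes with a strong change in any comparison and, for each role with none, the gene that moved furthest from *WT*. Of other pathway genes, up to 5 with the largest strong change in each comparison against *WT* are named. The listed genes and gene lists were chosen with earlier results of these data known.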

Additional observations from a re-analysis of the deposited data

Results flagged for a closer look

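The edited lines differed from each other, by a direct test of *KD2* against *KD1* (edgeR, adjusted p under 0.05), in 26 of the 37 genes tested, and each difference is given as the log2 fold change of *KD2* over *KD1*. Changes were about as common among all genes tested, of which 33.0% were lower and 34.8% higher in that comparison, so that the count of 26 is not particular to these genes. Lower in *KD2* were 19 genes (51.4%). In the mevalonate steps these were *Hmgcs1* (-0.90), *Idi1* (-0.80), *Fdps* (-0.54) and *Pmvk* (-0.26). In the squalene and sterol steps they were *Dhcr7* (-1.28), *Sc5d* (-1.09), *Nsdhl* (-1.05), *Cyp51* (-0.89), *Ebp* (-0.78), *Fdft1* (-0.73) and *Msmo1* (-0.67), and among the control genes *Insig1* (-0.61) and *Srebf2* (-0.48). The fatty acid genes were *Fasn* (-0.88), *Acly* (-0.78) and *Acaca* (-0.45), and those of elongation and desaturation were *Fads1* (-0.83), *Scd2* (-0.74) and *Elovl1* (-0.34). Higher in *KD2* were 7 genes (18.9%): *Acss2* (1.83), *Acacb* (1.11), *Lpin1* (0.92), *Me1* (0.59), *Scd1* (0.49), *Stard4* (0.40) and *Mvd* (0.35). These edited lines are single clones, and their chromosome medians differed, by -0.61 on chromosome 13, -0.47 on 14 and -0.53 on X, whose part in the 5 genes there was not tested.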

How the results depend on the processing

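Each value of the 37 genes was recomputed under 1 changed choice at a time. Of 1998 values under these alternatives, 1838 kept their direction and their side of the threshold (values past it in neither fit counted as unchanged whatever their sign), 62 newly passed it, 34 no longer did, 61 moved by more than their error with the chromosome median taken off, and 3 changed sign. *Mvk* in *KD2* went from 0.06 to -0.22 (adjusted p = 0.00859) without both *WT* replicate 1 and *KD2* replicate 3 (0.20 at the highest with 1 replicate left out), and with the chromosome median taken off *Idi1* became 0.34 and *Nsdhl* 0.076 in *KD2*. With at least 10 counts required in every culture, which tests fewer genes, strongly higher and lower genes numbered 766 and 553 in *KD1*, 1173 and 525 in *KD2*, and 1181 and 733 between them, beside 1425 and 1143, 2211 and 1024, and 2247 and 1309, and the median of the listed genes in *KD2* was -0.11. With library size as the only scale that median was -0.071, the median between *KD2* and *KD1* was -0.13, and 1 listed gene was strongly lower there. With no filter on low counts the median between *KD2* and *KD1* was -0.34. Without both libraries that stood apart, an alternative chosen after seeing the data, 11 listed genes were lower in *KD1*, the medians were -0.29 in *KD2* and -0.34 between the lines, and 1 gene was strongly higher between the lines. With 1 replicate left out at a time, the listed genes that fell in *KD1* numbered 4 to 7, the strongly higher listed genes numbered 0 to 1 in *KD1* and 1 to 3 between *KD2* and *KD1*, and the median between the lines ran from -0.34 to -0.20. The cause of these shifts was not tested. In the 3 comparisons DESeq2's Wald test and its size factors kept every count of listed genes within 1.5 times.

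Same-numbered cultures did not deviate together (correlations from -0.079 to 0.135, beside -0.14 to 0.143 for different numbers), so that the numbers are only names. With a replicate block, 16 and 5 listed genes were higher and lower in *KD1*, 10 and 17 in *KD2*, and 7 and 19 between *KD2* and *KD1*, and no listed gene changed its call. Depth limits the genes near the floor, *Thrsp* among them.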
